A study of Mus musculus with 12 samples.

Results

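NF-kappaB is a family of transcription factors that switches on inflammatory genes in microglia, the macrophages of the brain. In resting cells the factors are held in the cytoplasm by IkappaB proteins, and kinases that act downstream of receptors for tumour necrosis factor, interleukin-1 and bacterial products release them. Among the genes they then switch on are their own inhibitors, which end the response, and cytokines such as Tnf, which can start it again in neighbouring cells.

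The members, genes of this circuit chosen by name, were followed in bulk RNA-sequencing counts: the 5 subunits Nfkb1, Nfkb2, Rela, Relb and Rel, the 3 inhibitors Nfkbia, Nfkbiz and Tnfaip3, and the 2 cytokines Tnf and Il6. They were 10 of 55487 genes in the count table, and all 10 were among the 15425 genes that passed the filter on low counts. The cells were CD11b-positive cells taken with magnetic beads from papain-digested cerebral cortex of male mice, 1 library for each of 12 mice. The 4 groups of 3 mice were WT mice and App NL-G-F mice, each given either phosphate-buffered saline (veh) or rh Bri2 BRICHOS R221E, a recombinant human molecular chaperone domain. App NL-G-F mice carry a mutated, humanised amyloid precursor protein sequence in their own App gene, so that amyloid plaques form without a transgene, and C57BL/6J was the background strain. Mice of all 4 groups had 24 intravenous injections over 12 weeks from the age of 9 months, at 10 mg/kg for rh Bri2 BRICHOS R221E, and 4 weeks without treatment before tissue was taken. App NL-G-F mice are called App mice here, and rh Bri2 BRICHOS R221E treatment is called BRICHOS treatment.

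Library totals were between 12433402 and 17889654 counts, and levels are in CPM, the count relative to the library total after scaling for composition. On that scale 3 counts, taken as the detection floor, stood for 0.169 to 0.227 CPM. The 9 microglial markers, P2ry12 and Tmem119 among them, summed to 24820 to 30090 CPM, and none was at 0 in any group. Their sum was 27360 to 30090 CPM in veh-treated WT and 24820 to 26790 CPM in veh-treated App mice. With BRICHOS it was 26030 to 27280 CPM in WT and 25950 to 27930 CPM in App mice. In App against WT mice, 2 of the 9 were called higher and 6 lower with veh, and 2 and 5 with BRICHOS. The shares of all genes were 20.1% and 16.9%, and 20.8% and 21.8%. The gate also held other cells, whose markers moved with strain too. Astrocyte markers (5 genes) summed to 243.5 to 390.6 CPM in veh-treated WT mice, 257.1 to 519.2 in BRICHOS-treated WT mice, 1107 to 3697 in veh-treated App mice and 469.9 to 1531 in BRICHOS-treated App mice. Neutrophil markers (6 genes) summed to 32.64 to 360.3 and 63.43 to 349.9 CPM in the veh-treated and BRICHOS-treated WT mice, against 12.63 to 34.39 and 11.03 to 30.28 CPM in the App mice. Border macrophage markers (5 genes) summed to 298.9 to 480.7 CPM in WT and 124.9 to 170.2 CPM in App mice over both treatments. Oligodendrocyte markers (5 genes) summed to 3989 to 16470 CPM in WT and 2908 to 5668 CPM in App mice. The part of these cells in the results was not tested, and in such bulk samples fewer cells of a type and less RNA per cell cannot be told apart.

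To show what the members share in sequence, the 250 bases before the start site were read from the RefSeq promoters of GRCm38.p6. Entries were found for Nfkb2, Rela, Rel, Nfkbia, Tnfaip3, Tnf and Il6, and not for Nfkb1, Relb and Nfkbiz. The consensus kappaB site of 10 bases, searched on either strand, was held by 1281 of 32851 promoters (3.9%). At least 1 match lay in the windows of Nfkb2, Rel, Nfkbia, Tnfaip3 and Il6, and none in those of Rela and Tnf. Nfkb2 had 3 start sites, each with a match, and Tnfaip3 had 2, the second without a match. The 3.9% is a share of single windows, and these genes had more than 1. The promoters of an inhibitor (Nfkbia), a subunit (Rel) and a cytokine with a match (Il6) are shown beside that of Tnf, which rose and has no match; capitals mark the matches, and those in Rel overlap by all but the end bases.
Nfkbia, chr12:55492648-55492897, minus strand: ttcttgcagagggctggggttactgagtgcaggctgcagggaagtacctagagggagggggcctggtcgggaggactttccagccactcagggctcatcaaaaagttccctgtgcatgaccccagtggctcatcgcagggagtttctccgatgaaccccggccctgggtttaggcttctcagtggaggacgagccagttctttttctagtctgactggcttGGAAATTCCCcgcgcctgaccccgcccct
Rel, chr11:23770970-23771219, minus strand: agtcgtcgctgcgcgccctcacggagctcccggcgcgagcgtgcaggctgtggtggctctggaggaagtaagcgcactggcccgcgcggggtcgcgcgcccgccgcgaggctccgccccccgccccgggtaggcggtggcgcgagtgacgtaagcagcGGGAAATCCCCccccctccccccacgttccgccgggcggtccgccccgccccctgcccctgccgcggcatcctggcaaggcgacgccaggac
Il6, chr5:30012864-30013113, plus strand: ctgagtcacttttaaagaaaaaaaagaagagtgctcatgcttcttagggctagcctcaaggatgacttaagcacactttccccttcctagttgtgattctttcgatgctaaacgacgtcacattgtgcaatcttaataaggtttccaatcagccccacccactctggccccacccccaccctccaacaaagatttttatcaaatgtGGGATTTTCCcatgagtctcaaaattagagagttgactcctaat
Tnf, chr17:35202008-35202257, minus strand: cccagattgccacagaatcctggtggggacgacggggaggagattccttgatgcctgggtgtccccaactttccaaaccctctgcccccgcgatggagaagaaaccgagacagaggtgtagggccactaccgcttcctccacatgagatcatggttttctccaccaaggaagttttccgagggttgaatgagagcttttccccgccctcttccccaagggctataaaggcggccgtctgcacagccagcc

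For Tnfaip3 and Nfkb2, 30 bases are shown because those windows lie partly or wholly in annotated exons. They hold the match nearest to the first start site in Tnfaip3, and an overlapping pair of matches before the first start site in Nfkb2.
Tnfaip3, chr10:19015411-19015440, minus strand: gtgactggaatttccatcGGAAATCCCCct
Nfkb2, chr19:46304687-46304716, plus strand: gggatcgtcacGGGAATTCCCCccctcggg
The match began 29 bases before the start site in Nfkbia, 44 in Il6, 92 in Rel and 12 in Tnfaip3. The pair shown for Nfkb2 began 39 bases before its first start site. Matches not shown began 11 bases before that site, and 125 bases before the first start site of Tnfaip3. These letters mark no binding in these cells, and no match in the Tnf window says only that the letters are not within 250 bases.

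In veh-treated mice the inhibitors Nfkbiz and Tnfaip3 and the cytokine Tnf were each 2.33 to 2.35 times as high in App as in WT mice, and Nfkbia was 1.34 times as high. None of the 5 subunits passed the test, although Nfkb2, Relb and Rel lay higher in every App mouse than in any WT mouse. Of the 10 members, 4 were upregulated and 0 downregulated (edgeR's quasi-likelihood test, adjusted p under 0.05), where 20.1% of all 15425 genes were upregulated, 16.9% downregulated and 37% called in either direction. The groups did not overlap, with App higher, for 7 of the 10 members and for 25.5% of all genes. The median log2 fold change was 0.49 over the members and -0.022 over all genes.

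**Figure D1:**
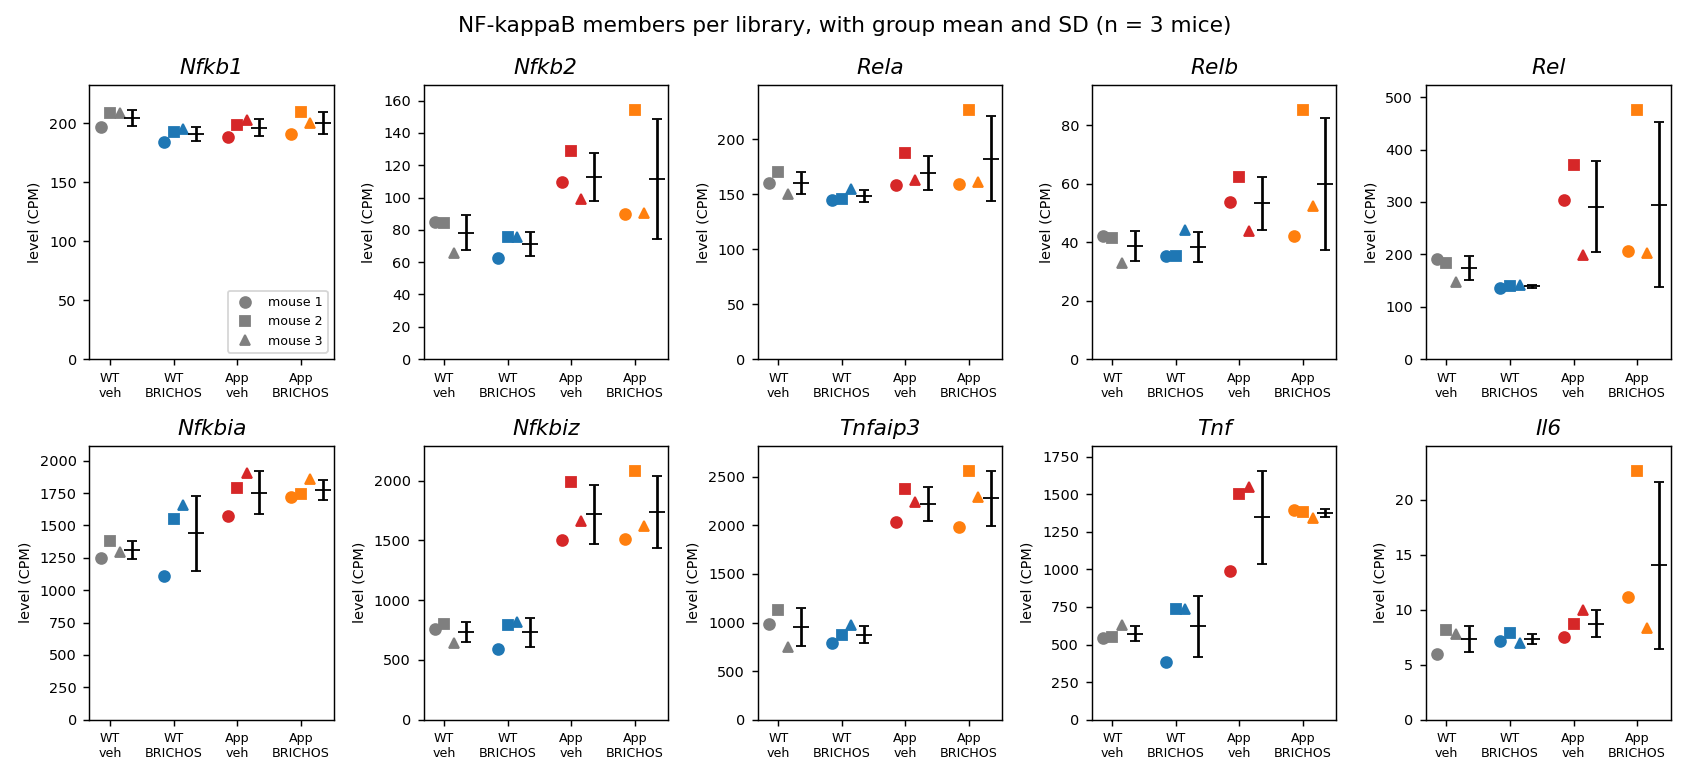
Level in CPM (linear axis from 0) of the 10 members in each library, by group; circles, squares and triangles are mice 1, 2 and 3 of a group, and the black bars give the mean and SD of 3 mice. Nfkbiz, Tnfaip3 and Tnf were higher in all 6 App libraries than in all 6 WT libraries, and the square of the BRICHOS-treated App group, mouse 2, stands above the other two for Nfkb2, Rela, Relb, Rel and Il6.

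Among the inhibitors, Tnfaip3 (GRCm38 chr10:19000910-19015657, minus strand) encodes a ubiquitin-editing enzyme that stops signalling from the TNF receptor. It was at 980.3, 1131 and 750 CPM in the veh-treated WT mice and at 2033, 2378 and 2243 CPM in the veh-treated App mice. The lowest App mouse was well above the highest WT mouse. Tnfaip3 was upregulated 2.33-fold (95% interval 1.87 to 2.90; log2 1.22 ± 0.144 SE, adjusted p = 5.25e-05).

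Nfkbiz (chr16:55811375-55838899, minus strand) encodes a nuclear IkappaB protein that works with NF-kappaB on a subset of its targets, Il6 among them. Its level was 760.1, 803.4 and 641.3 CPM in the veh-treated WT mice against 1503, 1988 and 1664 CPM in the veh-treated App mice. Again no App mouse fell within the WT range. The upregulation was 2.34-fold (95% interval 1.84 to 2.97, adjusted p = 0.000101).

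Nfkbia (chr12:55489410-55492647, minus strand) encodes IkappaBalpha, the inhibitor that NF-kappaB resynthesises fastest. Levels were 1246, 1381 and 1296 CPM in the veh-treated WT mice and 1570, 1792 and 1901 CPM in the veh-treated App mice. The ranges were apart, but by less than for Nfkbiz and Tnfaip3. The difference of 1.34-fold (95% interval 1.11 to 1.63) passed at an adjusted p of 0.0217 and did not pass without veh-treated WT mouse 1 or 3, or without App mouse 2 or 3, with log2 values of 0.36 to 0.42 and an adjusted p of up to 0.0713.

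The cytokine gene Tnf (chr17:35199381-35202007, minus strand) was at 541.5, 547.3 and 631.9 CPM in the veh-treated WT mice and at 991.8, 1502 and 1549 CPM in the veh-treated App mice. App mouse 1 was lower than the other two App mice and still above every WT mouse. The upregulation was 2.35-fold (95% interval 1.67 to 3.31, adjusted p = 0.00129), and it kept its call without any of the 6 libraries, with log2 values of 1.12 to 1.42.

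Il6 (chr5:30013114-30019981, plus strand), the other cytokine gene, was the member with the fewest reads. It had 87, 138 and 105 counts in the veh-treated WT mice and 116, 133 and 135 in the veh-treated App mice, or 5.957 to 8.184 CPM and 7.511 to 10 CPM. The ranges overlapped. The fold of 1.19 did not pass the test, with a 95% interval from 0.75 to 1.90 (adjusted p = 0.54).

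The subunits differed among themselves. Rel (chr11:23736847-23770970, minus strand), which encodes c-Rel, was at 190.1, 184.1 and 147.5 CPM in the veh-treated WT mice and at 303, 371.3 and 198.9 CPM in the veh-treated App mice. App mouse 3 lay just above the WT mice, and the other two were far above them. The fold was 1.67 (95% interval 1.05 to 2.66, adjusted p = 0.0768), and without App mouse 3 the log2 value of 0.74 became 0.95 and passed the test (adjusted p = 0.0341).

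Nfkb2 (chr19:46304320-46312385, plus strand) encodes the precursor that the alternative pathway processes, and Relb (chr7:19606217-19629438, minus strand) its usual partner. Nfkb2 was at 84.77, 84.22 and 65.95 CPM in the veh-treated WT mice and 109.4, 128.6 and 99.36 CPM in the veh-treated App mice, 1.44 times as high (95% interval 1.07 to 1.93, adjusted p = 0.0553). Relb was at 42.11, 41.4 and 32.79 CPM against 53.74, 62.16 and 43.87 CPM, 1.37 times as high (95% interval 0.972 to 1.94, adjusted p = 0.137). For both genes every App mouse was above every WT mouse, by a narrow gap for Relb. Nfkb2 passed in DESeq2's test (adjusted p = 0.0278). In edgeR it passed without the filter on low counts (adjusted p = 0.0262) and with a block for the mouse number (0.0194). With only the compared groups in the edgeR fit, both Nfkb2 (0.0125) and Relb (0.0371) passed. Exons of Nfkb2 overlap those of Psd and AC114539.1 on the other strand, and whether the counting used the strand is not stated in the sources used here.

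Nfkb1 (chr3:135584655-135691547, minus strand) and Rela (chr19:5637483-5648130, plus strand) encode the subunits of the classical dimer. Nfkb1 was at 196.8, 208.6 and 208.1 CPM in the veh-treated WT mice and 188, 198 and 202.4 CPM in the veh-treated App mice, a fold of 0.959 (95% interval 0.888 to 1.04, adjusted p = 0.374). Rela was at 160.2, 169.9 and 149.7 CPM against 157.9, 187.1 and 162.8 CPM, a fold of 1.06 (95% interval 0.879 to 1.27, adjusted p = 0.628). The ranges overlapped for both. With library totals alone as the scale, the median of all genes moved to -0.212 on the log2 scale, Nfkb1 was lower by call (-0.25, adjusted p = 0.000481), Rela changed sign (-0.11), and Nfkbia lost its call (0.23, adjusted p = 0.132), whereas Nfkbiz, Tnfaip3 and Tnf stayed upregulated.

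The comparison of App and WT mice that both received BRICHOS took its means from the other 6 libraries. The spread in its test came from all 12 libraries, as in the first comparison. The inhibitors Tnfaip3 and Nfkbiz and the cytokine Tnf rose again. Tnfaip3 was upregulated 2.60-fold, Nfkbiz 2.37-fold and Tnf 2.21-fold, and these 3 were called in both comparisons of strains, as were 15.1% of all genes with the higher level in App mice. Rel, Nfkb2, Relb and Il6 also passed, so that 7 of 10 members were upregulated and 0 downregulated, against 20.8% of all genes upregulated, 21.8% downregulated and 42.5% called in either direction. With only the compared groups in the edgeR fit, Nfkb2 (adjusted p = 0.051), Relb (0.0814) and Il6 (0.0731) did not pass. The groups did not overlap, with App higher, for 8 members and for 25.3% of all genes, and the median log2 fold change was 0.792 over the members and -0.042 over all genes. A call in this comparison and not in the veh-treated mice does not show a difference between them, and the test of that difference, given with the treatment comparisons, called 0 members.

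Among the inhibitors, Tnfaip3 was at 789.7, 870.6 and 971.1 CPM in the BRICHOS-treated WT mice and 1987, 2556 and 2290 CPM in the BRICHOS-treated App mice (95% interval of the fold 2.08 to 3.24, adjusted p = 1.88e-05). Nfkbiz was at 594.3, 791 and 813.6 CPM against 1514, 2083 and 1624 CPM (95% interval 1.87 to 3.02, adjusted p = 7.8e-05). The gap between strains was again wider than either group. Nfkbia was at 1110, 1553 and 1656 CPM against 1720, 1742 and 1860 CPM, and the ranges were just apart, with a fold of 1.23 (95% interval 1.02 to 1.5, adjusted p = 0.0771). WT mouse 1 had the lowest Nfkbia of all 12 libraries, and without it the log2 value of 0.30 became 0.15. With all libraries, DESeq2's test called Nfkbia higher (log2 0.33, adjusted p = 0.0342).

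Tnf was at 385.6, 736.3 and 739.7 CPM in the BRICHOS-treated WT mice and 1398, 1383 and 1342 CPM in the BRICHOS-treated App mice (95% interval of the fold 1.57 to 3.12, adjusted p = 0.00173). The App mice were closer to each other in Tnf than in any other member, and WT mouse 1 was far below its group. Il6 was at 7.181, 7.885 and 6.983 CPM against 11.17, 22.65 and 8.309 CPM, a fold of 1.91 (95% interval 1.22 to 3.02, adjusted p = 0.0254). App mouse 2, with 354 Il6 counts, was above the other two, which had 173 and 110. Without App mouse 2 the log2 value of 0.94 became 0.41 and the call was lost, as it was without WT mouse 1 (0.92), 2 (0.99) or 3 (0.90).

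The subunits were high in the same mouse. Rel was at 135.2, 139.4 and 141.6 CPM in the BRICHOS-treated WT mice and 206.1, 475.8 and 202.1 CPM in the BRICHOS-treated App mice, a fold of 2.12 (95% interval 1.33 to 3.39, adjusted p = 0.0141). App mouse 2 had more than any other library, and App mice 1 and 3 still lay above all WT mice. Without App mouse 2, the log2 value of 1.09 became 0.56 and Rel remained called.

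Nfkb2 was at 62.61, 75.58 and 75.5 CPM against 89.61, 154.3 and 90.64 CPM, a fold of 1.57 (95% interval 1.16 to 2.11, adjusted p = 0.0196). Relb was at 35.4, 35.31 and 44.24 CPM against 41.96, 85.22 and 52.42 CPM, a fold of 1.56 (95% interval 1.11 to 2.21, adjusted p = 0.0388). The ranges overlapped for Relb only. Without App mouse 2 the log2 value of Nfkb2 fell to 0.34 and that of Relb to 0.30, and both calls were lost. Both were also lost without WT mouse 1 (0.57 for Nfkb2 and 0.59 for Relb), and that of Relb without WT mouse 2 (0.59).

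Rela was at 144.3, 145.6 and 154.9 CPM against 158.8, 226.7 and 160.7 CPM, a fold of 1.23 (95% interval 1.02 to 1.48, adjusted p = 0.0709). Nfkb1 was at 183.9, 192.6 and 195.2 CPM against 191, 209.6 and 200.2 CPM, a fold of 1.05 (95% interval 0.973 to 1.13, adjusted p = 0.28). Neither passed in edgeR at these settings, and only Rela had its groups apart. DESeq2's test called Rela higher (log2 0.32, adjusted p = 0.0471). With library totals alone as the scale, the median of all genes was at -0.312 on the log2 scale, Nfkb1 changed sign (-0.20, adjusted p = 0.00175), and Nfkb2 (0.37), Relb (0.36) and Il6 (0.65) lost their calls.

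**Figure D2:**
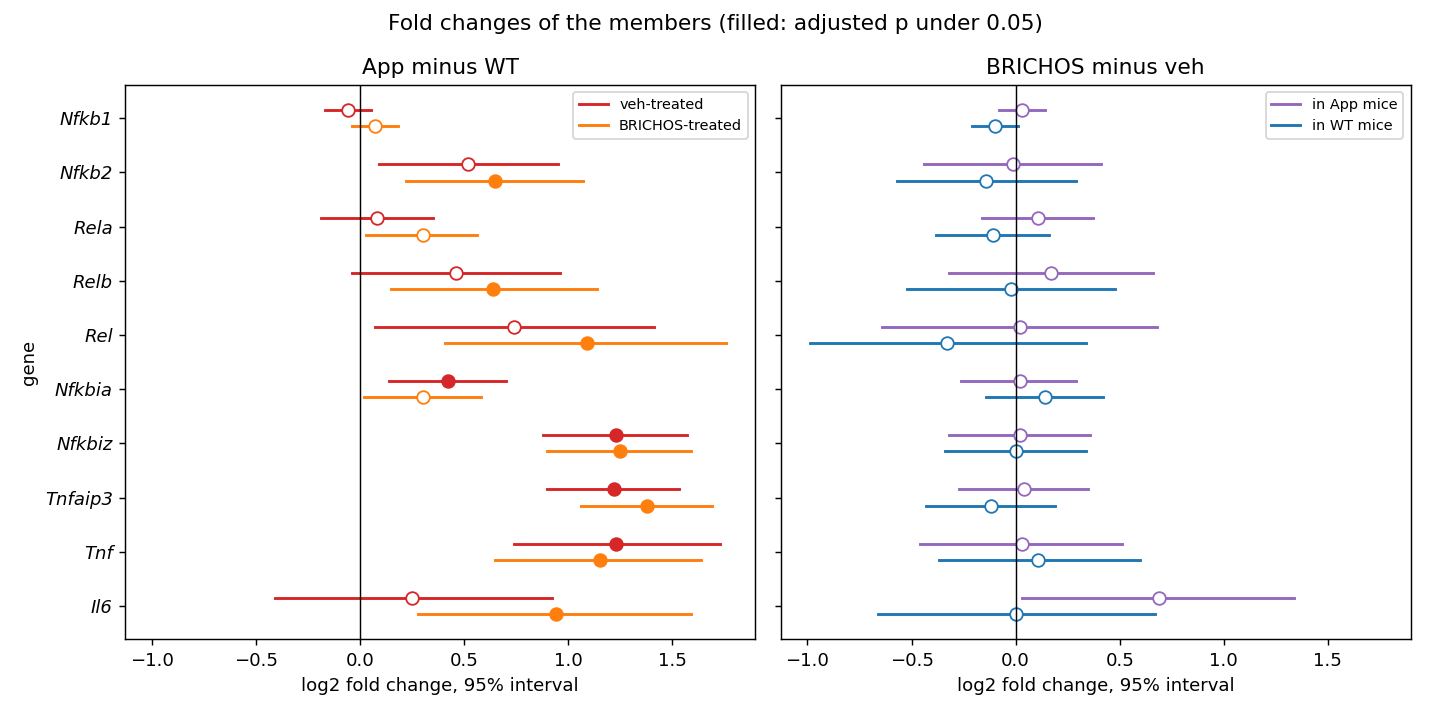
Log2 fold change (points) with its 95% interval (lines) for the 10 members: App minus WT in veh-treated and BRICHOS-treated mice on the left, BRICHOS minus veh in App and WT mice on the right; filled points passed an adjusted p of 0.05. Nfkbiz, Tnfaip3 and Tnf are filled in both comparisons of strains, at 1.15 to 1.38, and no point is filled for the treatment.

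Over both treatments, all 6 App libraries were above all 6 WT libraries for Nfkb2, Rel, Nfkbiz, Tnfaip3 and Tnf, 5 of the 10 members, and for 16.8% of all genes. For Tnfaip3 the App libraries began at 1987 CPM and the WT libraries ended at 1131 CPM. Tnf in App began at 991.8 CPM, where WT ended at 739.7. The gap was narrow for Rel (198.9 against 190.1 CPM) and for Nfkb2 (89.61 against 84.77 CPM). The summed level of 14 immediate early and stress genes, which can respond to tissue dissociation, was 13280 to 18800 CPM in WT and 13220 to 18660 CPM in App mice, and these ranges overlapped. Within these 14 genes, 4 were called higher and 3 lower in veh-treated App mice, and 2 and 2 in BRICHOS-treated App mice. The shares of all genes were 20.1% and 16.9%, and 20.8% and 21.8%. With 1 library left out, the calls were 2 to 4 higher and 1 to 3 lower with veh, and 0 to 3 higher and 0 to 4 lower with BRICHOS. All genes called in either direction were then 4449 to 5404 with veh and 5461 to 6245 with BRICHOS, of 15696 to 15907 tested. The part of the 14 genes in the members' levels was not tested.

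For the treatment, no member passed the test in either strain. In App mice the level with BRICHOS was 0.992 to 1.12 times that with veh for 9 of the members, and 1.61 times for Il6. In edgeR's quasi-likelihood test 0 of 10 members were called, as were 0.00648% of all genes (1 gene). DESeq2 called 0 members and 0.899% of the genes it tested (125 of 13900). At an unadjusted p under 0.05 there was 1 member, Il6, and 10.8% of all genes.

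The groups overlapped for all 10 members, whereas 13.5% of all genes had groups apart in either direction. The intervals say how large a change could have been missed. For Nfkbiz the fold with BRICHOS was 1.01 (95% interval 0.80 to 1.28), for Tnfaip3 1.03 (0.828 to 1.27) and for Nfkbia 1.01 (0.834 to 1.23). Those of Tnf (1.02, 0.728 to 1.43) and Rel (1.01, 0.64 to 1.6) were wider. The Il6 fold of 1.61 (95% interval 1.02 to 2.54, adjusted p = 0.43) rested on 7.511, 8.73 and 10 CPM with veh against 11.17, 22.65 and 8.309 CPM with BRICHOS. The BRICHOS-treated mouse 3 lay within the veh-treated range.

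Libraries of the App groups decided the sign of the small treatment values. Without BRICHOS-treated App mouse 2, the log2 value of Rel went from 0.02 to -0.50 and that of Relb from 0.17 to -0.17. Rela went from 0.11 to -0.08 and Nfkbiz from 0.02 to -0.12. No call depended on it.

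In WT mice the level with BRICHOS was 0.798 to 1.1 times that with veh. None of the members was called by edgeR or by DESeq2, or at an unadjusted p under 0.05, where edgeR called 0% of all genes at the adjusted and 11.4% at the unadjusted threshold, and DESeq2 0.545% (85 of 15597). Rel and Nfkb1 were the 2 members whose groups did not overlap, both lower with BRICHOS, as were 9.19% of all genes. Rel was at 135.2, 139.4 and 141.6 CPM with BRICHOS and 147.5 to 190.1 CPM with veh, a fold of 0.798 (95% interval 0.502 to 1.27, adjusted p = 0.733). Nfkb1 was at 183.9 to 195.2 CPM with BRICHOS and 196.8 to 208.6 CPM with veh, a fold of 0.932 (95% interval 0.863 to 1.01, adjusted p = 0.479). Neither difference passed the test.

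The response of App mice to BRICHOS did not differ by test from that of WT mice for any member. The test of the difference called 0 of 10 members in edgeR and in DESeq2, and 0 at an unadjusted p under 0.05, against 0.00648% and 14.8% of all genes in edgeR. DESeq2 called 1.48% of the genes it tested (240 of 16162). The widest intervals were those of Il6 (log2 difference 0.68, 95% interval -0.25 to 1.62, adjusted p = 0.484) and Rel (0.34, -0.60 to 1.29, adjusted p = 0.764). For Nfkb1 the difference was 0.13 (95% interval -0.02 to 0.29, adjusted p = 0.415). Each treatment comparison shares its veh-treated libraries with the first comparison of strains and its BRICHOS-treated libraries with the second.

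Mice of 1 group varied in some members more than in others. The SD between mice of a group, pooled over groups on the log2 scale, was 0.433 for Rel, 0.403 for Il6 and 0.331 for Tnf, and 0.054 for Nfkb1. Leaving out BRICHOS-treated App mouse 2 brought Rel to 0.268 and Il6 to 0.209, while Tnf was at 0.354. The members fell apart in that mouse into those that were high and those that were not.

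**Figure D3:**
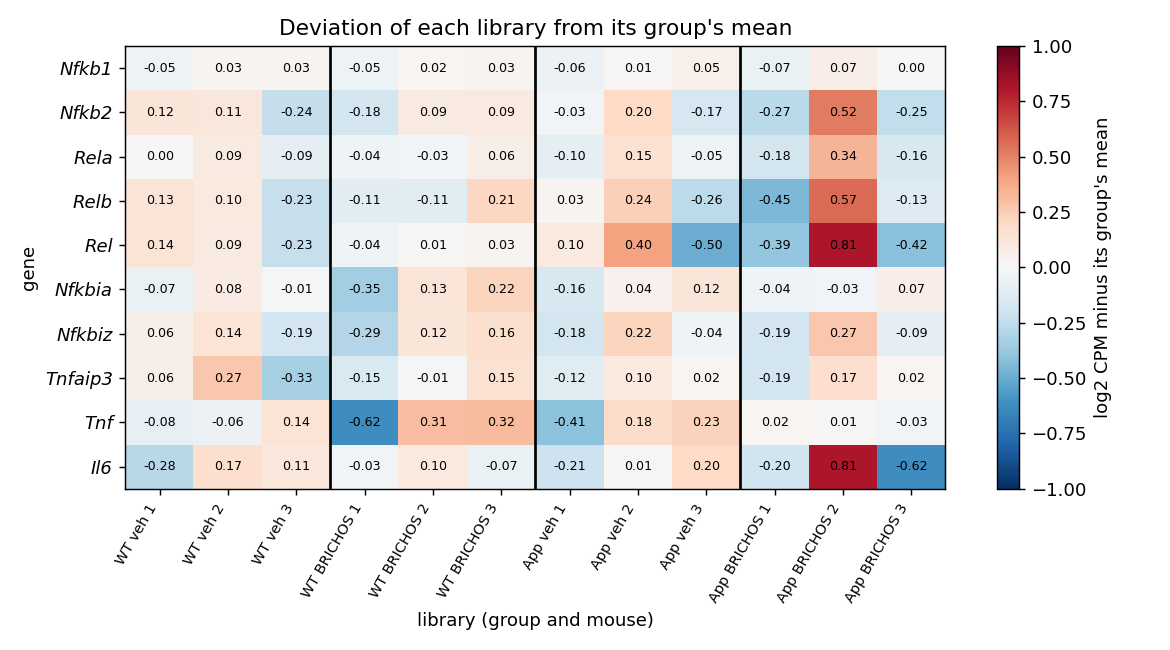
Log2 CPM of each library minus the mean of its group, for the 10 members (rows) and 12 libraries (columns, black lines between groups); red is above and blue below the group's mean. In BRICHOS-treated App mouse 2, Rel and Il6 are each 0.81 above their group's mean while Tnf is at 0.01 and Nfkbia at -0.03, and in BRICHOS-treated WT mouse 1 Tnf is at -0.62.

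BRICHOS-treated App mouse 2 was the highest of its group for 8 of 10 members and the lowest for 0. It lay 0.81 above the group's mean on the log2 scale for Rel and Il6, 0.57 for Relb, 0.52 for Nfkb2 and 0.34 for Rela, but 0.01 for Tnf and -0.03 for Nfkbia. So the mouse with the most Rel and Il6 had Tnf and Nfkbia levels like those of its group. The same library had the most counts of all 12 (17889654) and the lowest composition factor (0.8744), and its astrocyte markers were the lowest of its group (469.9 CPM). In genes chosen after their values were seen, it had 672.8 CPM of the heat shock gene Hspa1a and 172.3 CPM of Klf2. Mice 1 and 3 of its group had 178.8 and 178.6 CPM of Hspa1a and 58.04 and 63.37 CPM of Klf2. The WT libraries had 412.5 to 705.9 CPM of Hspa1a and 153.1 to 290.6 CPM of Klf2. Of the 14 immediate early and stress genes, Fos, Fosb and Egr1 lay between mice 1 and 3, and the rest were highest in mouse 2. The sum of the 14 genes, 18660 CPM, was also the highest of its group (14500 and 16560 CPM in the others). The part of these in the high values was not tested.

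BRICHOS-treated WT mouse 1 was the lowest of its group for 8 of 10 members, with Tnf 0.62, Nfkbia 0.35 and Nfkbiz 0.29 below the mean on the log2 scale. Its sum of immediate early and stress genes, 14600 CPM, was also the lowest of its group (16590 and 18800 CPM in the others). Its Hspa1a (705.9 CPM) and Klf2 (290.6 CPM) were instead the highest of its group. Mice 2 and 3 had 473.4 and 681.4 CPM of Hspa1a and 204 and 207.7 CPM of Klf2. Rel was within 0.04 of the mean there. In veh-treated App mice the order differed again, with Rel highest in mouse 2 and lowest in mouse 3, and Tnf highest in mouse 3 and lowest in mouse 1.

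Levels of different genes were compared per kb of exon. In veh-treated WT mice Nfkbia stood highest at 812.3 ± 42.4 CPM per kb (SD, n = 3), followed by Tnf at 349.9 ± 30.9. Nfkbiz (146.5 ± 16.7) and Tnfaip3 (132 ± 26.5) came next, with overlapping ranges. The subunits lay below all of these. Rela was at 52.06 ± 3.28, Rel at 23.29 ± 3.09, Nfkb2 at 17.08 ± 2.34, Nfkb1 at 16.96 ± 0.554 and Relb at 9.978 ± 1.34 CPM per kb, with overlapping ranges for Nfkb2 and Nfkb1. Il6 was last at 3.016 ± 0.492.

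The place of Nfkb1 depended on the length used. Its annotated exons together span 12.061 kb and its longest transcript 4.149 kb, and per kb of that transcript it stood at 49.29 CPM, above Rel. In veh-treated App mice Nfkbia was at 1090 ± 105, Tnf at 822.2 ± 189, Nfkbiz at 342.4 ± 49.2 and Tnfaip3 at 306.9 ± 24 CPM per kb, in the order of the WT mice, and Rela at 55.09 ± 5.09 remained the highest subunit.

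Other genes of the pathway were counted in lists. Of 28 known kappaB target genes, 27 were tested, and 17 were upregulated and 2 downregulated in veh-treated App mice (median log2 0.788). The counts were the same, 17 and 2, in BRICHOS-treated mice (median 0.848), and 16 were upregulated and 2 downregulated in both. Of all genes, 20.1% were upregulated and 16.9% downregulated with veh, 20.8% and 21.8% with BRICHOS, and 15.1% were upregulated in both. With library totals alone as the scale they were 15 and 2 in veh-treated and 14 and 6 in BRICHOS-treated mice. On that scale 2004 of all 15425 genes were higher and 5198 lower with veh, and 1590 and 7008 with BRICHOS. Without BRICHOS-treated App mouse 2, 4 were downregulated in place of 2. These lists were drawn up with earlier results of these data known, so their counts describe the genes and are no independent evidence.

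By the lowest p the leading targets were Csf1, Tlr2, Ptgs2 and Il1b. Csf1, a growth factor for microglia, was at 1853 ± 200 CPM in veh-treated App and 143.6 ± 14.4 CPM in veh-treated WT mice (SD, n = 3), a fold of 12.9 (95% interval 10.3 to 16.2), and 12.1-fold higher in BRICHOS-treated App mice. Ptgs2, the inducible cyclooxygenase, rose 7.67-fold and 8.47-fold. Il1b, an inflammatory cytokine, rose 5.49-fold with veh, from 331.4 ± 20.6 to 1820 ± 400 CPM, and 5.15-fold with BRICHOS. Tlr2, a receptor for bacterial lipoproteins, rose 4.43-fold and 4.95-fold. The adjusted p of all 4 lay between 1.15e-08 and 8.69e-06 in both comparisons in edgeR. These folds were larger than that of any member.

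**Figure D4:**
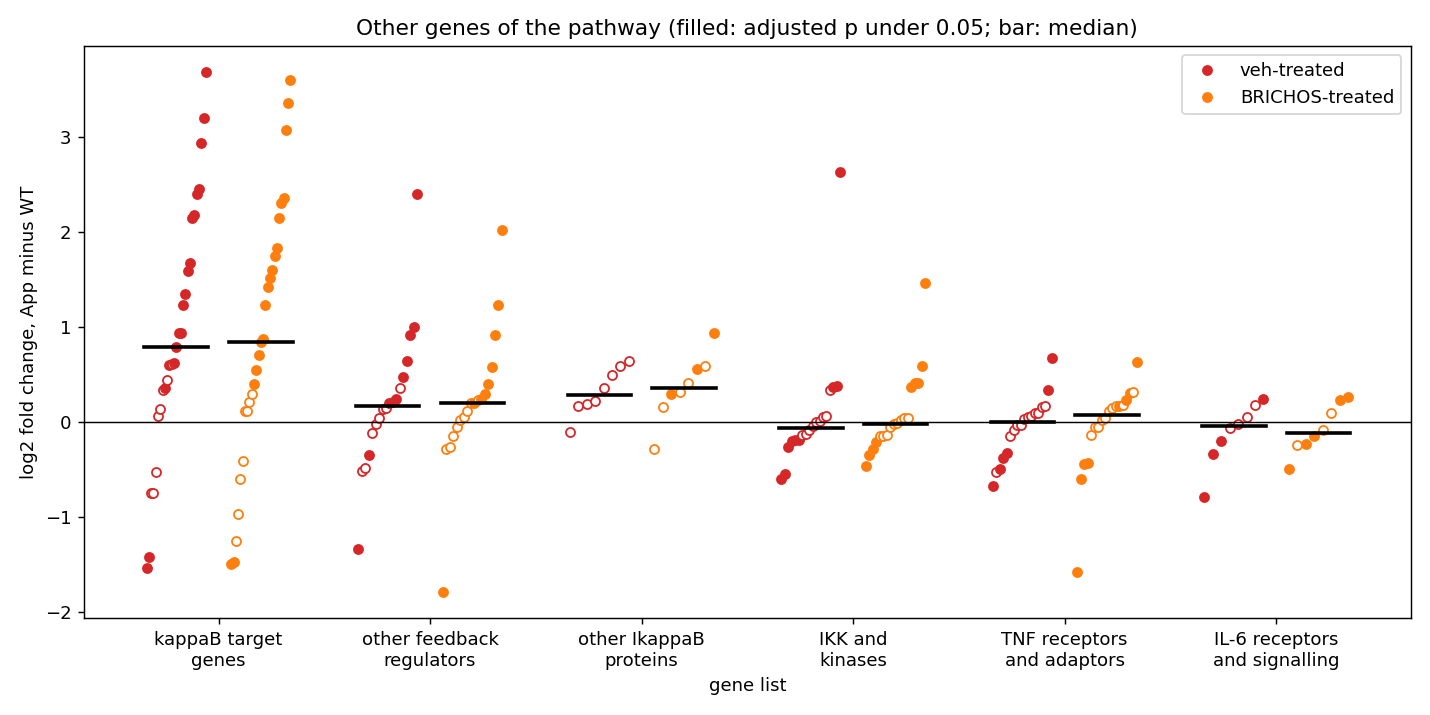
Log2 fold change of App over WT for the tested genes of 6 pathway lists, in veh-treated (red) and BRICHOS-treated (orange) mice; each point is a gene, filled points passed an adjusted p of 0.05 and black bars are medians. The kappaB target genes have the highest medians, 0.788 and 0.848, and Csf1 is their highest point at 3.69 and 3.60.

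Of 18 feedback regulators other than the members, 8 were upregulated and 2 downregulated in veh-treated App mice, and 8 and 1 in BRICHOS-treated App mice, 7 and 1 of them in both. The medians were 0.173 and 0.199 on the log2 scale. Of all genes, 20.1% were upregulated and 16.9% downregulated with veh, and 20.8% and 21.8% with BRICHOS. With library totals alone the counts were 4 and 5, and 4 and 6, beside the counts of all genes on that scale given with the targets. The 8 upregulated with veh became 4 without WT mouse 1 or App mouse 2 or 3, 5 without WT mouse 2 and 3 without WT mouse 3. The 2 downregulated became 1 without WT mouse 1 or App mouse 1 or 3, and the 1 with BRICHOS became 2 without App mouse 2 or 3. Calls over all genes fell too with 1 library left out. In either direction they went from 5710 to between 4449 and 5404 with veh, and from 6560 to between 5461 and 6245 with BRICHOS. The same holds beside the counts of the other lists with 1 library left out. Tnfaip2, a TNF-induced gene, rose 5.29-fold (adjusted p = 0.000121 in edgeR) and 4.08-fold (adjusted p = 0.000324). Dusp2, a phosphatase of MAP kinases, rose 1.89-fold in both, and Tnip2, a ubiquitin-binding partner of the Tnfaip3 protein, 1.39-fold and 1.5-fold. The ubiquitin ligase gene Itch fell to 0.786 times the WT level with veh, and was at 0.90 times with BRICHOS (adjusted p = 0.0995).

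Of the 8 other IkappaB family members and regulators, none was called in veh-treated mice in edgeR, and 1 was called higher in DESeq2. DESeq2 called 3008 of the 17293 genes it tested higher there, and 31.5% in either direction. In BRICHOS-treated mice 3 were upregulated in edgeR and 4 in DESeq2. Of all genes, 20.8% were higher in edgeR. DESeq2 called 3251 of 18990 genes higher, and 33.2% in either direction. The 3 became 0 without WT mouse 1 or 2 or App mouse 2. When the libraries of the groups not compared were left out of the model, 3 were upregulated with veh and 0 with BRICHOS. With library totals alone, 0 were higher in either comparison, and 0 and 1 were lower, where 5198 and 7008 of all 15425 genes were lower. At an unadjusted p under 0.05, 2 and 5 of the 8 passed in edgeR, as did 7184 and 7728 of all 15425 genes.

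The kinases that release NF-kappaB went in both directions. Of 18, 3 were upregulated and 6 downregulated in veh-treated App mice, and 5 and 4 in BRICHOS-treated App mice, against the shares of all genes given with the feedback regulators. Library totals alone gave 2 and 12, and 2 and 13. That scale moved all genes down, with 5198 of 15425 lower with veh and 7008 with BRICHOS. The 6 downregulated with veh became 3 without any 1 of the WT mice or App mouse 1 or 2, and 4 without App mouse 3. With BRICHOS the 5 upregulated became 2 without WT mouse 1 or App mouse 2 and 3 without WT mouse 2 or 3, and the 4 downregulated became 2 without WT mouse 1 or App mouse 1 or 3. Ikbke, an inducible IKK-related kinase, rose from 1.197 ± 0.412 to 7.436 ± 1.18 CPM with veh, 6.22-fold (95% interval 3.77 to 10.4), and 2.77-fold with BRICHOS. Irak2, a kinase of the interleukin-1 and Toll-like receptor pathway, rose 1.31-fold and 1.32-fold. Map3k14, the kinase that starts the alternative pathway, fell to 0.659 and 0.785 times the WT level, and Tab2, an adaptor of the kinase upstream of IKK, to 0.683 and 0.727 times.

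Receptors of the cytokines were examined whether called or not. Tnfrsf1a, the widely expressed TNF receptor, was at 213.7 ± 4.32 CPM in veh-treated App and 199.3 ± 3.54 CPM in veh-treated WT mice, with folds of 1.07 (adjusted p = 0.301 in edgeR) and, with BRICHOS, 1.11 (adjusted p = 0.118). Its sign changed with library totals alone (log2 -0.09 and -0.12). Tnfrsf1b, the TNF receptor of immune cells, fell to 0.801 times the WT level with veh (adjusted p = 0.00991) and was at 0.912 times with BRICHOS (adjusted p = 0.215), or called lower without App mouse 2 (log2 -0.23, adjusted p = 0.0197).

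Of the TNF receptors and adaptors, 18 genes, 2 were upregulated and 4 downregulated in veh-treated mice (median log2 0.002), and 4 and 4 in BRICHOS-treated mice (0.081). The shares of all genes were 20.1% and 16.9%, and 20.8% and 21.8%. Library totals alone gave 0 and 9 in each, where 5198 and 7008 of all 15425 genes were lower. The 2 upregulated with veh became 1 without any 1 of the 6 libraries, and the 4 with BRICHOS became 1 without WT mouse 1 and 2 without WT mouse 3 or App mouse 2. Casp8, which encodes the protease of the death-inducing complex, fell to 0.627 and 0.659 times the WT level, Cflar, its inhibitor, to 0.771 and 0.745 times, and Traf5 to 0.713 and 0.738 times.

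Il6ra, the receptor chain that binds interleukin-6, fell from 439.8 ± 36.5 to 253.5 ± 15.3 CPM with veh, to 0.576 times the WT level (95% interval 0.516 to 0.644, adjusted p = 6.67e-06 in edgeR), and to 0.711 times with BRICHOS (adjusted p = 0.000243). Il6st, the shared signalling chain, rose 1.19-fold (adjusted p = 0.0114) and 1.17-fold (adjusted p = 0.0161). Its call with BRICHOS was lost without WT mouse 3 (log2 0.19) or App mouse 3 (0.20), and library totals alone gave log2 0.06 and -0.04, with no call. Adam10, a protease that sheds receptors, fell to 0.793 and 0.852 times, and the kinase gene Jak1 to 0.872 and 0.906 times. The Jak1 call with BRICHOS was lost without WT mouse 2 or 3 or App mouse 1 or 3, at log2 values of -0.14 to -0.11. Of the 8 genes in this list, 1 was upregulated and 3 downregulated in veh-treated mice, and 2 and 3 in BRICHOS-treated mice. The shares of all genes were 20.1% and 16.9%, and 20.8% and 21.8%. With library totals alone the list had 0 and 4, and 0 and 6, where 5198 and 7008 of all 15425 genes were lower. The 2 upregulated with BRICHOS became 0 without WT mouse 3 and 1 without WT mouse 1 or 2 or App mouse 2 or 3.

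No gene of these 6 lists was called for the treatment in App or in WT mice, in edgeR or in DESeq2. At an unadjusted p under 0.05 in edgeR, which 10.8% of all genes passed in App and 11.4% in WT mice, 1 feedback regulator passed in App mice. In WT mice 2 feedback regulators, 4 kinases, 3 TNF receptor genes, 3 genes of interleukin-6 signalling and 3 targets passed, and none of the IkappaB family.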

How the data were processed

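CD11b-positive cortical cells of 12 mice were measured by bulk RNA-sequencing, 1 library per mouse. The authors trimmed the reads with Cutadapt, aligned them to GRCm38 with STAR, counted them per gene with featureCounts and deposited raw counts without normalization. The submitters' processing notes give STAR 2.6.1d, featureCounts 1.5.1 and FastQC 0.11.8, and the study's methods name another version of STAR. The study's own tests were DESeq2 Wald tests.

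Symbols, exon lengths and positions came from the GENCODE annotation of GRCm38, and promoters from RefSeq (GRCm38.p6). Genes were kept by filterByExpr with a minimum count of 10. Counts were scaled with TMM factors and fitted in 1 model with a mean per group (edgeR 4.0.16 in R 4.3.3). Contrasts were tested with the quasi-likelihood test, and p-values were adjusted by Benjamini-Hochberg over all 15425 tested genes. CPM values are TMM-scaled, and intervals are at 95%. The fit was tested on simulated data. DESeq2 1.42.0, other scalings, filters, thresholds, the samples in the fit, the replicate block and leaving out each library were alternatives. Figures were drawn with matplotlib.

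The members and gene lists were chosen with earlier results of these data known. All 10 members were reported in each comparison. Of each pathway list, at most the 4 called genes with the lowest p in veh-treated App against WT mice were named, and 4 cytokine receptors whether called or not. Library totals (12433402 to 17889654) limit the precision, and the SD covers mice and counting error together.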

Additional observations from a re-analysis of the deposited data

How the results depend on the processing

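Tnfaip3, Nfkbiz and Tnf stayed upregulated in App mice in both comparisons of strains under every alternative run. The count of members called moved from 4 to 7 in veh-treated mice, and from 7 to 4 in BRICHOS-treated mice, when the libraries of the groups not compared were left out of the model. All genes called were then 5770 of 14480 and 5520 of 14800, against 5710 and 6560 of 15425. In BRICHOS-treated mice 4 members were also called with an absolute log2 fold change over 1 added, for which all genes were not counted. With 1 library left out, 4 to 8 members were called with BRICHOS, lowest without WT mouse 1 or App mouse 2. With veh 3 to 4 were called. All genes called were then 5461 to 6245 with BRICHOS and 4449 to 5404 with veh. DESeq2 called 1 subunit, 3 inhibitors and 1 cytokine higher with veh. Of the 17293 genes it tested there, it called 3008 higher and 2443 lower (31.5% in either direction). With BRICHOS it called 4 subunits, 3 inhibitors and 2 cytokines higher. Of 18990 genes it called 3251 higher and 3060 lower (33.2% in either direction). Without the filter on low counts edgeR called 2 subunits, 3 inhibitors and 1 cytokine with veh, and 4, 3 and 2 with BRICHOS. Of all 29173 genes edgeR then called 2804 higher and 2343 lower with veh, and 2921 and 3108 with BRICHOS. The treatment in App mice had 1 call, Il6, at an unadjusted p under 0.05, and no other alternative called a member for the treatment or for the difference between strains. The cause was not tested.

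With the replicate block, 6 members were called in veh-treated mice (Nfkb2 and Rel added) and 9 in BRICHOS-treated mice (Rela and Nfkbia added), and Rel in App mice changed sign for the treatment (-0.02). Whether same-numbered mice belong together was not settled, as 3 libraries per group are too few to decide it. Deviations of same-numbered libraries correlated at 0.08 to 0.143 on average and at -0.015 to 0.227 singly, and no comparison had every pair over 0.1. With the block, all genes called rose from 5710 to 5991 with veh and from 6560 to 6822 with BRICHOS.

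Library totals alone, an alternative chosen after seeing the data, reversed Rela (-0.11) and Tnfrsf1a (-0.09) in veh-treated mice and Nfkb1 (-0.20), Il6st (-0.04) and Tnfrsf1a (-0.12) in BRICHOS-treated mice. For the treatment in App mice it reversed Nfkb1 (-0.02), Rel (-0.05), Nfkbia (-0.03), Nfkbiz (-0.03), Tnfaip3 (-0.01) and Tnf (-0.02), for that in WT mice Relb (0.01), and for the difference Nfkbiz (-0.06). Nfkb2 in App mice reversed to 0.01 with DESeq2's size factors or its test, and the difference for Nfkbiz to -0.01 with at least 10 counts in every library. None of these reversed values for the treatment was called.

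Leaving out 1 library gave signs either way for treatment values near 0. In App mice the log2 ranges were -0.31 to 0.12 for Nfkb2, -0.08 to 0.20 for Rela, -0.17 to 0.37 for Relb, -0.50 to 0.23 for Rel, -0.04 to 0.08 for Nfkbia, -0.12 to 0.14 for Nfkbiz, -0.04 to 0.13 for Tnfaip3 and -0.13 to 0.14 for Tnf. In WT mice they were -0.13 to 0.04 for Relb, -0.27 to 0.02 for Tnfaip3, -0.03 to 0.36 for Tnf, -0.10 to 0.12 for Nfkbiz and -0.13 to 0.09 for Il6. For the difference they were -0.18 to 0.27 for Nfkb2, -0.15 to 0.39 for Relb, -0.18 to 0.56 for Rel, -0.12 to 0.14 for Nfkbiz and -0.33 to 0.06 for Tnf.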
